A study of Homo sapiens with 16 samples.

Results

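The genes of fibroblast growth factor (FGF) signalling and of its negative feedback were followed through neural differentiation of H9, an established line of human embryonic stem cells. Members were taken by symbol from the deposited gene counts: every FGF gene whose symbol is FGF and a number, the receptors FGFR1 to FGFR4 and FGFRL1, the inhibitors SPRY1, SPRY2, SPRY4, SPRED1 and SPRED2, the phosphatases DUSP4 and DUSP6, and the transcription factors ETV1, ETV4 and ETV5. The rule found 37 of 57736 genes, namely 22 FGF genes, 5 receptors and 10 feedback and ETV genes. Of the 37, 31 passed the expression filter of edgeR and were tested. The other 6, FGF3, FGF4, FGF6, FGF20, FGF21 and FGF23, reached at most 0.802 CPM (counts scaled to a common library size) and 16 counts in a library.

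RNA was sequenced on D0, in undifferentiated cells kept on Matrigel in mTeSR1 medium, and on D12, D30 and D70 of differentiation. Each stage had 2 libraries of cells treated with 40 µM TMG (Thiamet-G, an inhibitor of the enzyme that removes O-GlcNAc from proteins) and 2 libraries of control cells that received DMSO, the solvent. Neural induction used LDN193189 and SB431542, inhibitors of the BMP and activin receptors, for the first 12 days, and N2/B27 medium followed. The cells of all groups come from 1 cell line, and the replicates are described as biological without saying what separates them, so p-values measure the spread between these libraries. Between D0, D12 and the later stages the culture medium changed with the stage, and these cannot be told apart there, while D30 and D70 share a medium.

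FGFs are secreted proteins that bind tyrosine kinase receptors together with heparan sulphate, or with a Klotho protein in the case of the endocrine members. The receptors signal mainly through RAS and ERK, which switch on the ETS factors ETV1, ETV4 and ETV5 and a set of inhibitors (Sprouty and Spred proteins, which act between receptor and RAF, and DUSP phosphatases, which inactivate ERK) that hold the same signal down. Human embryonic stem cells need FGF2 to remain undifferentiated, and in the embryo FGF8 and its relatives pattern the anterior forebrain and the border of midbrain and hindbrain. FGF11 to FGF14 are intracellular, are not secreted, and bind voltage-gated sodium channels of neurons.

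Library totals ran from 10334908 to 19836878 counts. Several libraries stood apart in markers of other cell types. The summed level of 7 mesenchyme genes was 29600 CPM in TMG replicate 2 of D30, against 4380 to 5530 CPM in the other libraries of D30, and 45100 and 58900 CPM in control and TMG replicate 2 of D70, against 7450 and 3890 CPM in their replicates 1. The sum of 7 neuron genes was 220 CPM in TMG replicate 2 of D70, against 566 to 1180 CPM in the other libraries of D70. The sum of 7 roof plate and choroid plexus genes was 10600 and 3470 CPM in control and TMG replicate 1 of D70, against 494 and 53.5 CPM in their replicates 2, and that of 6 neural crest genes was 796 CPM in TMG replicate 2 of D12, against 198 to 260 CPM in the other libraries of D12. In TMG replicate 2 of D30 the sum of 7 midbrain and hindbrain genes was 44.8 CPM, against 5.07, 8.47 and 11.3 CPM in the other libraries of D30. The sum of the 6 neural crest genes was 100 CPM there, against 62.2, 35.9 and 39.6 CPM. The part of these markers in the D12, D30 and D70 values of the members was not tested. PAX6, a neural progenitor gene, had 2.49 CPM in TMG replicate 2 of D70 and 306 to 586 CPM in the other libraries of D70. In that library the sum of 7 neural progenitor genes, PAX6 among them, was 1710 CPM. The sum was 2340 to 4650 CPM in the other libraries of D70, so PAX6 alone does not stand for the list. SOX1, a neural progenitor marker, stayed at or below 0.375 CPM everywhere. In a bulk sample, fewer cells of a type and less RNA per cell cannot be told apart.

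The promoters of 3 feedback genes are shown because these genes took different courses, SPRY4 with one of the deepest falls among the members, DUSP6 with a slower and lasting fall, and SPRED1 with no call in any comparison. Each window holds the 250 bases before the RefSeq transcription start on GRCh38.p14, read along the gene, at chr5:142324248-142324497 (minus strand) for SPRY4, chr12:89352502-89352751 (minus strand) for DUSP6 and chr15:38252586-38252835 (plus strand) for SPRED1, with capitals for AGGAAG, a core recognised by ETS factors, in either orientation.
SPRY4: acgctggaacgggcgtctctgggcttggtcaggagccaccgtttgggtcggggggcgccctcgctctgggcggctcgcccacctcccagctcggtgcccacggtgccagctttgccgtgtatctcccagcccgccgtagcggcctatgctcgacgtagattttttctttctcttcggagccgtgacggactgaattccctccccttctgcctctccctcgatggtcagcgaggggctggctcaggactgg
DUSP6: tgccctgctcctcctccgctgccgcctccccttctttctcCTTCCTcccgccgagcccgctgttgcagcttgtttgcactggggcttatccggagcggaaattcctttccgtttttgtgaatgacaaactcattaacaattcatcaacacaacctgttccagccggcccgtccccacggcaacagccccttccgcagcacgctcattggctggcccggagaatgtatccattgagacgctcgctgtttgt
SPRED1: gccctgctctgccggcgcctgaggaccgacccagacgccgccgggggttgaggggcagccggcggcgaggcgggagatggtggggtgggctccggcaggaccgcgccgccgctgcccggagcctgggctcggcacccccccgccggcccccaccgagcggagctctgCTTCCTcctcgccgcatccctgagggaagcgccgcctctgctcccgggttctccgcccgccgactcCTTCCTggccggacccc

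The table of RefSeq promoters held 26 of the 37 members. AGGAAG or its complement CTTCCT occurred in windows of 11 of the 26, against 32.9% of all genes with a window and 28.7% of all windows. The DUSP6 match lay at positions -210 to -205 from the start, and SPRED1 had matches at -83 to -78 and -17 to -12. CCGGAA or TTCCGG, another ETS core that differs in the base before GGAA so that no GGAA counts under both, occurred in SPRY1, SPRY2 and ETV1 and in 17.2% of all genes and 14.5% of windows. The AP-1 string TGACTCA or TGAGTCA occurred in FGF1 alone and in 5.19% of genes and 4.2% of windows. These are letter matches only, and the SPRY4 window held none of the 3 strings.

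The first comparison asked how the members changed between D0 and D12. In control cells 12 of 31 members passed a false discovery rate of 5% in edgeR's quasi-likelihood test, where 16.7% of all genes tested did, and 11 of the 12 were lower on D12, where 9.71% of all genes were lower. In TMG-treated cells, which are separate libraries, 13 members passed, against 16.4% of all genes, and 12 of them were lower, against 9.19%. The arms shared 11 of these calls: FGF1, FGF2, FGF12, FGF19, FGFR1, FGFR4, SPRY1, SPRY2, SPRY4, DUSP6 and ETV4, each lower on D12. The median log2 fold change of the members was -1.07 in control and -0.93 in TMG cells, against 0.00 and 0.04 over all genes. FGF19 in control and FGF16 in TMG cells had no count on D12 and were set to their detection bound. Both bounds lay below the median of their arm, so this step could not move it. By role, 5 of 10 feedback and ETV genes, 2 of 5 receptors, 3 of 12 secreted FGFs and 1 of 4 intracellular FGFs were lower in control cells.

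With 1 library left out, fewer members were called from D0 to D12 in every fit of either arm. The share of all genes called in these fits is not given, so the fall is no result about the members. FGFR4, SPRY2, SPRY4, DUSP6 and ETV4 kept their calls in both arms in all of these fits and in every other setting run, and SPRY1 did so in the TMG arm.

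**Figure D1:**
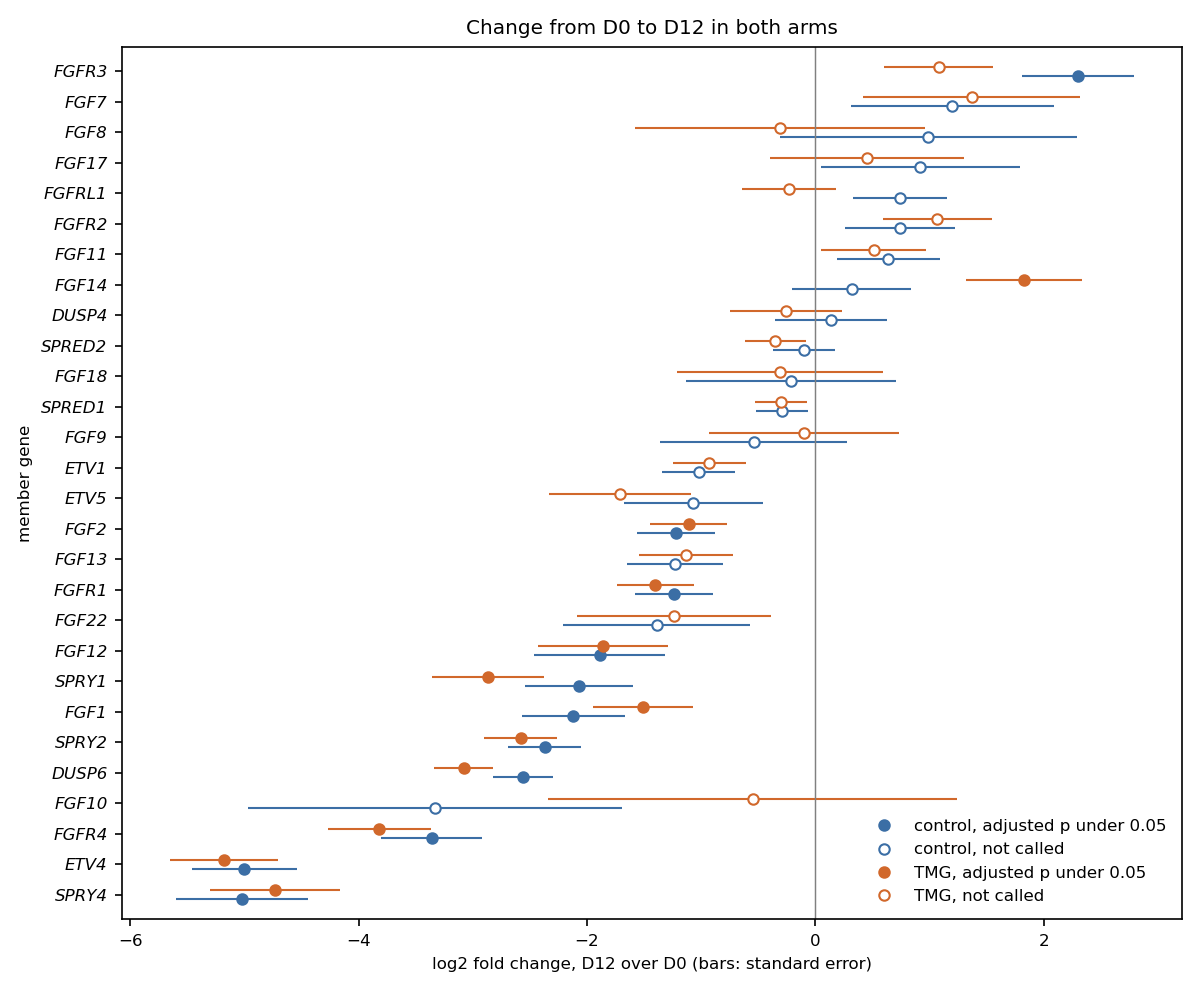
Log2 fold change of D12 over D0 (x axis) with its standard error for the 28 members that had counts in all 4 groups, in control (blue) and TMG-treated cells (orange); filled circles passed an adjusted p of 0.05 by edgeR. SPRY4, ETV4 and FGFR4 lie farthest to the left in both arms, and FGFR3 lies farthest to the right in control cells.

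SPRY4 (ENSG00000187678, chromosome 5 of GRCh37 from 141689992 to 141706020), an inhibitor of RAS activation, had 330 and 390 CPM in the control libraries of D0 and 10.8 and 11.4 CPM on D12. In TMG cells it had 342 and 342 CPM on D0 and 13.9 and 11.8 CPM on D12. Every D12 library was at 3.0% to 4.05% of the D0 mean of its arm. The log2 fold change was -5.02 ± 0.58 (standard error, adjusted p = 0.000863 by edgeR) in control and -4.73 ± 0.57 (adjusted p = 0.00105) in TMG cells.

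ETV4 (ENSG00000175832, chromosome 17 from 41605212 to 41656988), an ETS activator downstream of ERK, had 117 and 129 CPM on D0 and 4.96 and 2.68 CPM on D12 in control cells. The TMG libraries held 125 and 129 CPM on D0 and 4.77 and 2.17 CPM on D12. Its fall was 32.1-fold in control (-5.00 ± 0.46 on the log2 scale, adjusted p = 0.000274 by edgeR) and 36.3-fold in TMG cells (-5.18 ± 0.47, adjusted p = 0.000221). ETV4 shares 68 exonic bases with DHX8 on the opposite strand, and the strand of counting is not given in the sources used here.

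The related factors moved less. ETV1 had 108 and 91.5 CPM on D0 and 41.4 and 56.6 CPM on D12 in control cells, a log2 fold change of -1.02 ± 0.32 that missed the threshold (adjusted p = 0.0505 by edgeR, and 0.0706 in TMG cells) and passed by DESeq2 (adjusted p = 0.0189 in control and 0.0361 in TMG cells). ETV5 had 77.7 and 103 CPM on D0 and 58.3 and 27.7 CPM on D12, with adjusted p = 0.259 in control and 0.087 in TMG cells by edgeR and 0.227 and 0.0332 by DESeq2. For both genes the D0 and D12 libraries of an arm did not overlap, as was true of 23 of 31 members and of 66.6% of all genes in the control arm.

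DUSP6 (ENSG00000139318, chromosome 12 from 89741012 to 89746278), the cytoplasmic ERK phosphatase, had 284 and 302 CPM on D0 and 50.0 and 49.5 CPM on D12 in control cells. TMG cells had 310 and 305 CPM on D0 and 46.6 and 26.3 CPM on D12. These are falls of 5.89-fold (-2.56 ± 0.26 on the log2 scale, adjusted p = 0.000438 by edgeR) and 8.43-fold (-3.08 ± 0.26, adjusted p = 0.000161). DUSP4, a nuclear phosphatase of the same family, had 28.0 and 71.2 CPM on D0 and 78.7 and 30.5 CPM on D12 in control cells. Its replicates differed more than its stages, and it passed in no comparison.

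SPRY2 (ENSG00000136158) and SPRY1 (ENSG00000164056), both Sprouty inhibitors, fell as well. SPRY2 had 66.6 and 107 CPM on D0 and 17.8 and 15.9 CPM on D12 in control cells, and 91.2 and 93.0 against 15.4 and 15.4 CPM in TMG cells. Its log2 fold changes were -2.37 ± 0.32 (adjusted p = 0.0016 by edgeR) and -2.58 ± 0.32 (adjusted p = 0.00109). SPRY1 had 53.3 and 69.9 CPM on D0 and 17.3 and 12.1 CPM on D12 in control cells, and 67.6 and 65.7 against 11.8 and 6.33 CPM in TMG cells. The fall of SPRY1 was 4.19-fold (adjusted p = 0.0159) and 7.32-fold (adjusted p = 0.00455), and in the control arm it was lost when any 1 of the 4 libraries was left out (adjusted p 0.0513 to 0.114).

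SPRED1 and SPRED2, which block RAF activation at the membrane, did not follow the Sprouty genes. In control cells SPRED1 had 102 and 121 CPM on D0 and 98.0 and 84.2 CPM on D12, with a log2 fold change of -0.29 ± 0.23 (adjusted p = 0.416 by edgeR). Over all 16 libraries it ran from 66.6 to 132 CPM. SPRED2 ran from 30.6 to 62.7 CPM, with a log2 fold change on D12 of -0.10 ± 0.27 (adjusted p = 0.829). Per kb of exon, DUSP6 and SPRY4 were the most abundant feedback genes in control cells of D0, at 75.9 and 54.9 CPM per kb, and their libraries did not overlap, while on D12 SPRED1 at 11.8 CPM per kb lay next to DUSP6 at 12.9, and SPRY4 was at 1.69.

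**Figure D2:**
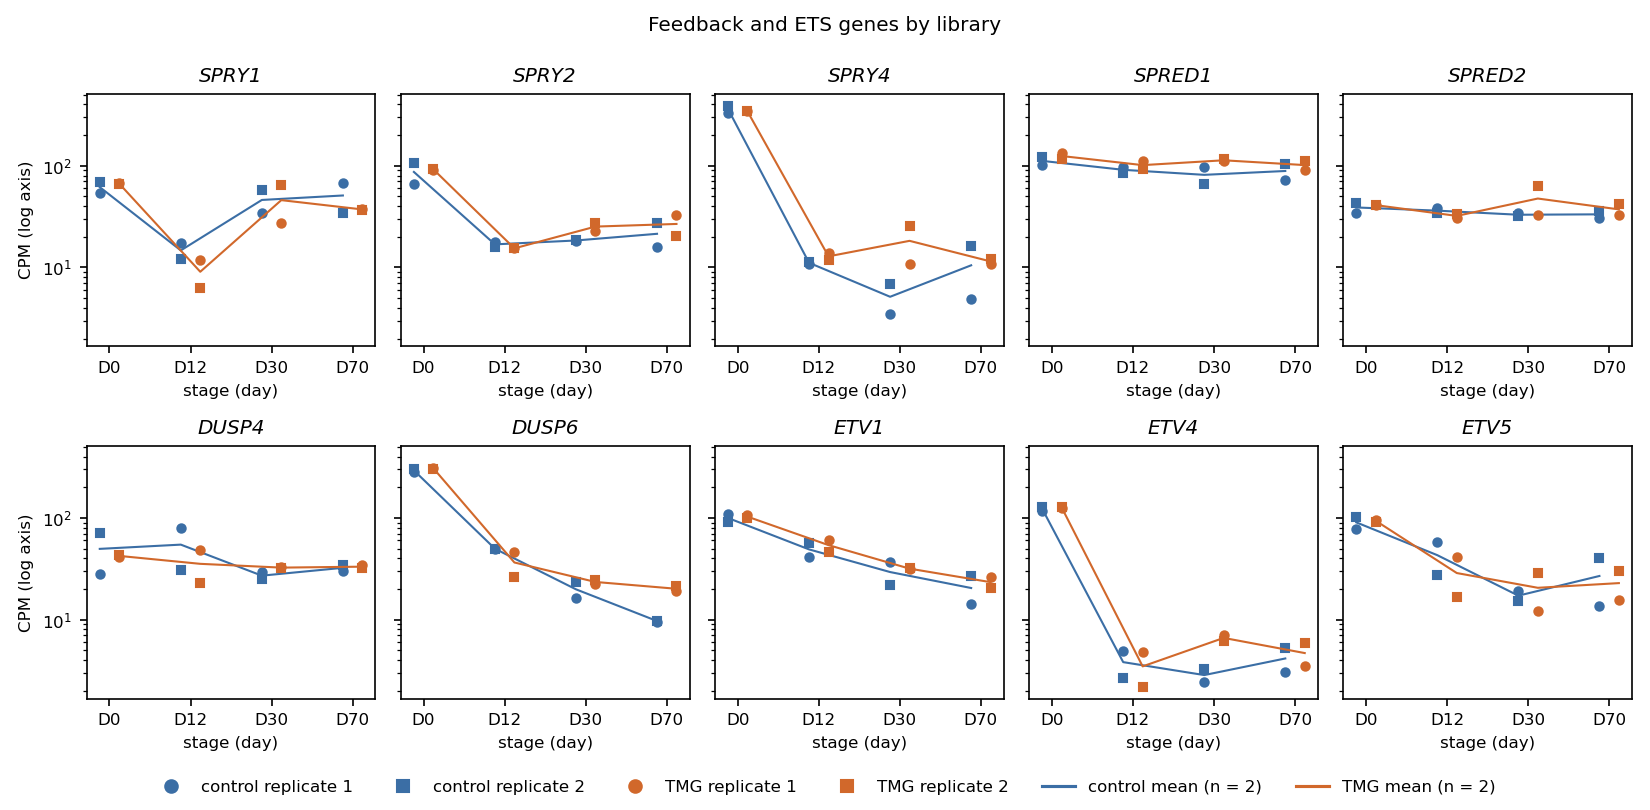
CPM (log axis) of the 10 feedback and ETV genes in each library at the 4 stages (x axis), with control in blue, TMG in orange, circles for replicate 1, squares for replicate 2 and lines through the group means. SPRY4 and ETV4 drop to 13.9 CPM or less in every D12 library, SPRY1 is at 27.1 CPM or more in every D30 library, and SPRED1 stays between 66.6 and 132 CPM.

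Among the ligands, FGF19 (ENSG00000162344, chromosome 11 from 69513006 to 69518790), an endocrine FGF, was present on D0 at 15.2 and 16.8 CPM in control and 28.5 and 25.8 CPM in TMG libraries. No count was found in either control library of D12, and 3 counts were found in the TMG libraries together. FGF19 was therefore at least 103-fold lower on D12 in control cells (floor of 3 counts per library, adjusted p = 0.0115 by edgeR), and the ratio of counts in TMG cells was 318 (95% exact interval of counting error 109 to 1550, adjusted p = 0.013). The call was lost without control replicate 1 of D12 (adjusted p = 0.0842) or control replicate 2 of D12 (adjusted p = 0.0707), and in the TMG arm without any 1 of its 4 libraries (0.0539 to 0.108) or without the filter on low counts (0.0508).

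FGF2, a ligand that sustains pluripotent cells, was the most abundant secreted FGF at every stage in control cells, at 15.6 CPM per kb on D0 against 8.77 for FGF19 and 0.743 for FGF8. In TMG cells of D0 FGF19 stood above it, at 14.9 CPM per kb against 12.7, and the libraries did not overlap. It had 104 and 108 CPM on D0 and 51.4 and 39.7 CPM on D12 in control cells, and 86.8 and 86.3 against 49.9 and 30.3 CPM in TMG cells. The falls of 2.33-fold and 2.16-fold passed by edgeR (adjusted p = 0.0326 and 0.046), and neither call held when 1 library of its arm was left out (0.102 to 0.179 in control, 0.0692 to 0.244 in TMG). FGF2 shares 804 exonic bases with NUDT6 on the opposite strand, and its reads may include some of that gene. FGF1, which binds all FGF receptors, went from 2.90 and 2.10 to 0.540 and 0.601 CPM in control cells (adjusted p = 0.011 by edgeR) and from 1.71 and 2.68 to 0.726 and 0.807 CPM in TMG cells (adjusted p = 0.0385). Its control call was lost without control replicate 1 of D0, replicate 1 of D12 or replicate 2 of D12 (adjusted p = 0.073, 0.0969 and 0.0701), and its TMG call without any 1 library (0.0867 to 0.258) or without the filter (0.12).

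Receptors changed in both directions in control cells. FGFR4 (ENSG00000160867, chromosome 5 from 176513906 to 176525145), a receptor used by FGF19 with the co-receptor KLB, had 97.6 and 49.5 CPM in control cells of D0 and 8.39 and 5.96 CPM on D12. TMG cells had 76.3 and 86.6 CPM on D0 and 7.37 and 4.09 CPM on D12. FGFR4 fell 10.2-fold (-3.36 ± 0.44 on the log2 scale, adjusted p = 0.00152 by edgeR) and 14.2-fold (-3.82 ± 0.45, adjusted p = 0.000904).

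FGFR1, the main receptor of pluripotent cells, had 967 and 716 CPM on D0 and 344 and 370 CPM on D12 in control cells, and 756 and 760 against 296 and 281 CPM in TMG cells. Its falls of 2.36-fold and 2.63-fold passed (adjusted p = 0.0324 and 0.02 by edgeR) but not with any 1 library of the arm left out (0.0599 to 0.203 in control, 0.0957 to 0.121 in TMG). FGFR3 (ENSG00000068078, chromosome 4 from 1795020 to 1810599), a receptor of neural progenitors, rose in control cells from 30 and 39.2 to 211 and 131 CPM (4.93-fold, adjusted p = 0.012). In TMG cells it had 41.7 and 41.3 CPM on D0 and 118 and 56.5 CPM on D12, with adjusted p = 0.149, and the difference between the arms was not significant (interaction log2 -1.23 ± 0.67, adjusted p = 1.0 by edgeR). The rise in control cells did not hold without control replicate 1 of D0 (adjusted p = 0.095), replicate 2 of D0 (0.0563) or replicate 1 of D12 (0.0815). FGFR2 had 131 and 175 CPM on D0 and 216 and 297 CPM on D12 in control cells (adjusted p = 0.313), and FGFRL1, a receptor that lacks the kinase, had 21.8 and 22.9 against 53.4 and 21.5 CPM (adjusted p = 0.236).

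The order of the receptors per kb of exon changed accordingly. In control cells of D0 FGFR1 stood at 48.9 CPM per kb, FGFR4 at 15.3, FGFR2 at 8.14, FGFR3 at 7.14 and FGFRL1 at 5.15, and only FGFR2 and FGFR3 overlapped their neighbour in this order. On D12 FGFR3 led at 35.2 CPM per kb, followed by FGFR1 at 20.8, FGFR2 at 13.6, FGFRL1 at 8.62 and FGFR4 at 1.49, and the libraries of FGFR2 and FGFRL1 overlapped. On D30 FGFR3 remained first in control cells at 27.1, and FGFR2 was at 12.4, FGFRL1 at 12.1 and FGFR1 at 9.64. By D70 the libraries of FGFR2, FGFR1, FGFR3 and FGFRL1 overlapped between neighbours, and FGFR4 was last at 0.955. In TMG cells FGFR1 led on D0 at 44.1 CPM per kb, the libraries of FGFR3 (11.7 to 24.4) and FGFR1 (16.3 to 17.2) overlapped on D12, and on D30 FGFR2 at 18.8 and FGFR1 at 18.7 stood above FGFR3 at 11.8, with FGFR1 and FGFR3 overlapping. By D70 FGFR3 stood first in TMG cells at 24.0, before FGFR1 at 21.2, FGFR2 at 14.1 and FGFRL1 at 13.3. The libraries of these receptors overlapped between neighbours, and FGFR4 was last at 0.824. The lengths count every annotated exon of a gene, so a gene with many unused exons appears lower.

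**Figure D3:**
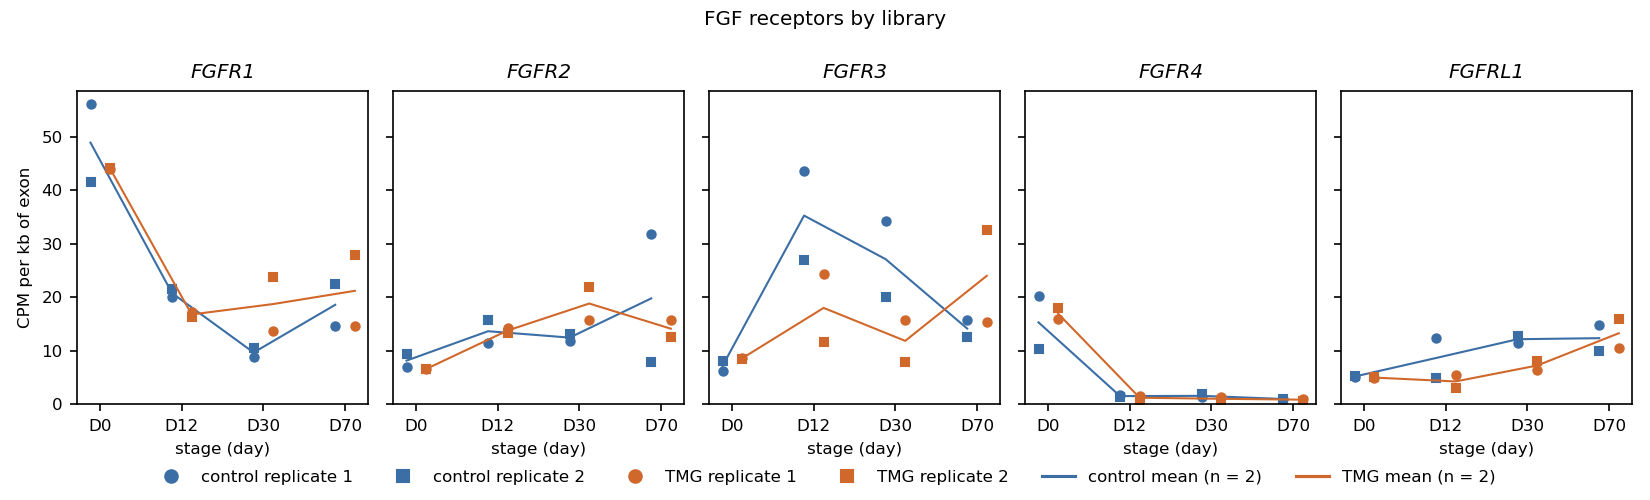
CPM per kb of exon (y axis) of the 5 receptors in each library by stage, with control in blue, TMG in orange, circles for replicate 1, squares for replicate 2 and lines through the group means. FGFR1 leads on D0 at 41.6 to 56.2, FGFR3 leads in control cells of D12 at 27.0 to 43.5, and FGFR4 is at or below 1.81 in every library after D0.

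Of the intracellular FGFs, FGF12 had 25.6 and 25.1 CPM on D0 and 5.45 and 8.20 CPM on D12 in control cells, and 27.1 and 27.8 against 6.23 and 8.93 CPM in TMG cells (adjusted p = 0.0462 and 0.0494 by edgeR). The calls ended without the filter on low counts (0.082 and 0.0843), and with any 1 library of the arm left out (0.125 to 0.254 in control, 0.131 to 0.261 in TMG). FGF13 had 24.1 and 42.3 against 14.3 and 14.0 CPM in control cells (adjusted p = 0.066 by edgeR and 0.0273 by DESeq2), and in TMG cells the adjusted p was 0.0861 and 0.0454. FGF14 had 0.411 and 0.514 CPM on D0 and 1.97 and 1.36 CPM on D12 in TMG cells, a called rise of 3.55-fold (adjusted p = 0.0339), and 0.432 and 0.629 against 0.932 and 0.383 CPM in control cells. The interaction was not significant (1.51 ± 0.73, adjusted p = 1.0 by edgeR), and the call was lost without the filter (0.06) or without any 1 library of the arm (0.0684 to 0.204). FGF16, a relative of FGF9, had 0.411 and 0.566 CPM on D0 and no count on D12 in TMG cells, at least 2.86-fold lower (adjusted p = 0.0364, lost without any 1 of the 4 libraries at 0.109 to 0.176).

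Few members passed between later neighbouring stages. From D12 to D30 in control cells 1 of 31 passed by edgeR, where 3.6% of all genes did. This was DUSP6, at 50.0 and 49.5 CPM on D12 and 16.3 and 23.4 CPM on D30 (log2 fold change -1.32 ± 0.25, adjusted p = 0.0202). It no longer passed without control replicate 1 of D12 (0.116), replicate 2 of D12 (0.118) or replicate 1 of D30 (0.18). In TMG cells 0 of 31 passed, against 0.511% of all genes, and this 0 did not hold without TMG replicate 1 of D30. At an unadjusted p under 0.05 there were 9 higher and 2 lower, against 7.86% and 7.15%. From D30 to D70 the counts were 0 in control, against 0.384% of all genes, and 0 in TMG cells, against 0.00825%. At an unadjusted p under 0.05 there were 7 members in control cells, against 18.4%, and 2 in TMG cells, both higher, against 6.45% higher and 4.51% lower. Neither count of 0 at the false discovery rate held without replicate 1 of D70 of its arm. The share of all genes in the fits with a library left out is not given. DESeq2 on the same libraries called 3 members from D12 to D30 in control cells (FGFR1, SPRY1 and DUSP6), where it called 12.2% of the genes it gave an adjusted p, and 1 in TMG cells (SPRY1), beside 5.21%. From D30 to D70 it called 4 in control cells (FGF1, FGF10, FGF14 and DUSP6), beside 8.13%, and 0 in TMG cells, beside 1.75%.

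SPRY1 had higher values again after D12. From 17.3 and 12.1 CPM on D12 it stood at 34.6 and 57.5 CPM on D30 and 67.5 and 34.4 CPM on D70 in control cells, and at 27.1 and 64.6 CPM on D30 and 37.3 and 37 CPM on D70 in TMG cells. The control D30 libraries lay above both of D12, with adjusted p = 0.0805 by edgeR. On D70 its libraries overlapped those of D0 in control cells (log2 fold change -0.27 ± 0.45, adjusted p = 0.68), while in TMG cells both libraries of D70 lay below those of D0 (-0.84 ± 0.46, adjusted p = 0.189).

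Between D0 and D70, 13 of 31 members passed in control cells by edgeR, where 29.8% of all genes did, and 16 passed in TMG cells, against 29.0%. The number fell without control replicate 1 of D0 and, in the TMG arm, without either library of D0. Without control replicate 2 of D0 the calls of FGF2, FGF7, FGF11, FGF22 and FGFRL1 were lost. Without control replicate 1 of D70 those of FGF2, FGF22, FGFR1 and FGFRL1 were lost. The number rose without control replicate 2 of D70, though FGF2 and FGF7 lost their calls. It fell without TMG replicate 2 of D70. These last 2 are the libraries with high mesenchyme markers. The share of all genes in these fits is not given. Both arms called 12 members: FGF2, FGFR1, FGFR4, SPRY2, SPRY4, DUSP6, ETV1 and ETV4 were lower on D70, and FGF7, FGF11, FGF14 and FGFRL1 were higher. FGF14, FGFR4, SPRY2, SPRY4, DUSP6, ETV1 and ETV4 kept their calls in both arms in every fit with 1 library left out and in the other settings. FGF2 lost its control call without any 1 library (adjusted p 0.104 to 0.146 by edgeR) and its TMG call without replicate 1 or 2 of D0 (0.0946 and 0.0998) or replicate 2 of D70 (0.119). FGFR1 lost its control call without replicate 1 of D0 (0.0969) or of D70 (0.0836) and its TMG call without replicate 1 or 2 of D0 (0.146 and 0.133) or replicate 1 of D70 (0.185).

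Of the 10 feedback and ETV genes, 5 were lower on D70 than on D0 in control cells, where 14.7% of all genes were lower, and 6 in TMG cells, against 14.1%. DUSP6 had 9.57 and 9.80 CPM in the control libraries of D70, 30.2-fold below D0 (-4.92 ± 0.29 on the log2 scale, adjusted p = 1.16e-05 by edgeR), and 19.0 and 21.2 CPM in TMG libraries (-3.94 ± 0.27, adjusted p = 2.38e-05). SPRY4 had 4.88 and 16.1 CPM in control and 10.7 and 12.2 CPM in TMG cells, and ETV4 had 3.08 and 5.22 against 3.47 and 5.91 CPM, each called in both arms. ETV1, which had missed the threshold on D12, was at 14.1 and 26.8 CPM in control and 26.1 and 20.6 CPM in TMG cells and fell 4.86-fold and 4.39-fold from D0 (adjusted p = 0.000811 and 0.00118). ETV5 passed in both arms by DESeq2 (adjusted p = 0.0226 in control and 0.00771 in TMG cells). By edgeR it missed the threshold in control cells, at 13.5 and 40.2 CPM (adjusted p = 0.057). It passed by edgeR in TMG cells, at 15.5 and 30.2 CPM (adjusted p = 0.0346). That call was lost without TMG replicate 1 of D0 (0.122), replicate 2 of D0 (0.105) or replicate 1 of D70 (0.147), and without the filter (0.109).

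The members called higher in both arms were the intracellular FGF14 and FGF11, the receptor FGFRL1 and the ligand FGF7. FGF14 had 7.64 and 4.18 CPM in control and 6.79 and 4.62 CPM in TMG cells of D70, 11-fold and 12.1-fold above D0 (adjusted p = 0.000975 and 0.000872 by edgeR). Its exons share 4356 bases with ITGBL1 on the opposite strand, which had 914 counts over all libraries against 575 for FGF14. FGF11 had 80.2 and 62.2 CPM in control and 36.6 and 61.0 CPM in TMG cells, 4.21-fold and 3.73-fold above D0 (adjusted p = 0.00816 and 0.0126). A pair of lncRNAs on the same strand overlap FGF11, by 1420 and 4169 exonic bases. The FGF11 call was lost without control replicate 2 of D0 (0.0642) and, in the TMG arm, without replicate 1 of D0 (0.105), replicate 2 of D0 (0.0633) or replicate 2 of D70 (0.0575). FGFRL1 had 63.9 and 43.2 CPM in control and 45.8 and 69.3 CPM in TMG cells (2.40-fold and 2.67-fold above D0, adjusted p = 0.04 and 0.0265), and these calls did not hold without either control library of D0 (0.156 and 0.14), control replicate 1 of D70 (0.191), either TMG library of D0 (0.138 and 0.123) or TMG replicate 2 of D70 (0.113).

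FGF7 and FGF10, ligands that mesenchyme sends to neighbouring epithelium, had their highest values in replicate 2 libraries of D70, which also had the most mesenchyme markers. FGF7 had 1.54 and 8.12 CPM in control and 1.34 and 6.47 CPM in TMG cells of D70, where replicate 2 of each arm was the higher, against 0.137 to 0.494 CPM on D0. The rises passed (adjusted p = 0.0154 and 0.0116 by edgeR), but not without control replicate 2 of D70 (log2 fold change 1.85 in place of 3.48, adjusted p = 0.14) or TMG replicate 2 of D70 (2.35 in place of 3.88, adjusted p = 0.0849), nor without a library of D0 (0.082 and 0.101 in control, 0.104 and 0.0565 in TMG). Reads of FGF7 may be shared with its pseudogenes, of which FGF7P3 held 434 counts. FGF10 had 0.128 and 7.31 CPM in control and 4.34 and 7.67 CPM in TMG cells of D70. On D0 it had 0.185 and 2.10 CPM in control and 0.274 and 0.154 CPM in TMG cells. Only the TMG arm passed (adjusted p = 0.04 by edgeR, against 0.348 in control). That call was lost without TMG replicate 1 of D0, replicate 2 of D0 or replicate 2 of D70, and without the filter (0.107). TMG replicate 1 of D70, at 4.34 CPM of FGF10, had the lowest mesenchyme sum of D70. The summed mesenchyme level was 45100 and 58900 CPM in the replicate 2 libraries and 7450 and 3890 CPM in the replicate 1 libraries, and its part in these values was not tested. TMG replicate 2 of D30, with 29600 CPM of these markers, had 0.567 CPM of FGF7, below both control libraries of D30 at 1.50 and 0.802 CPM. FGF10 had 0.945 CPM in that library, above TMG replicate 1 of D30 at 0.582 CPM and the control libraries at 0 and 0.2 CPM.

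**Figure D4:**
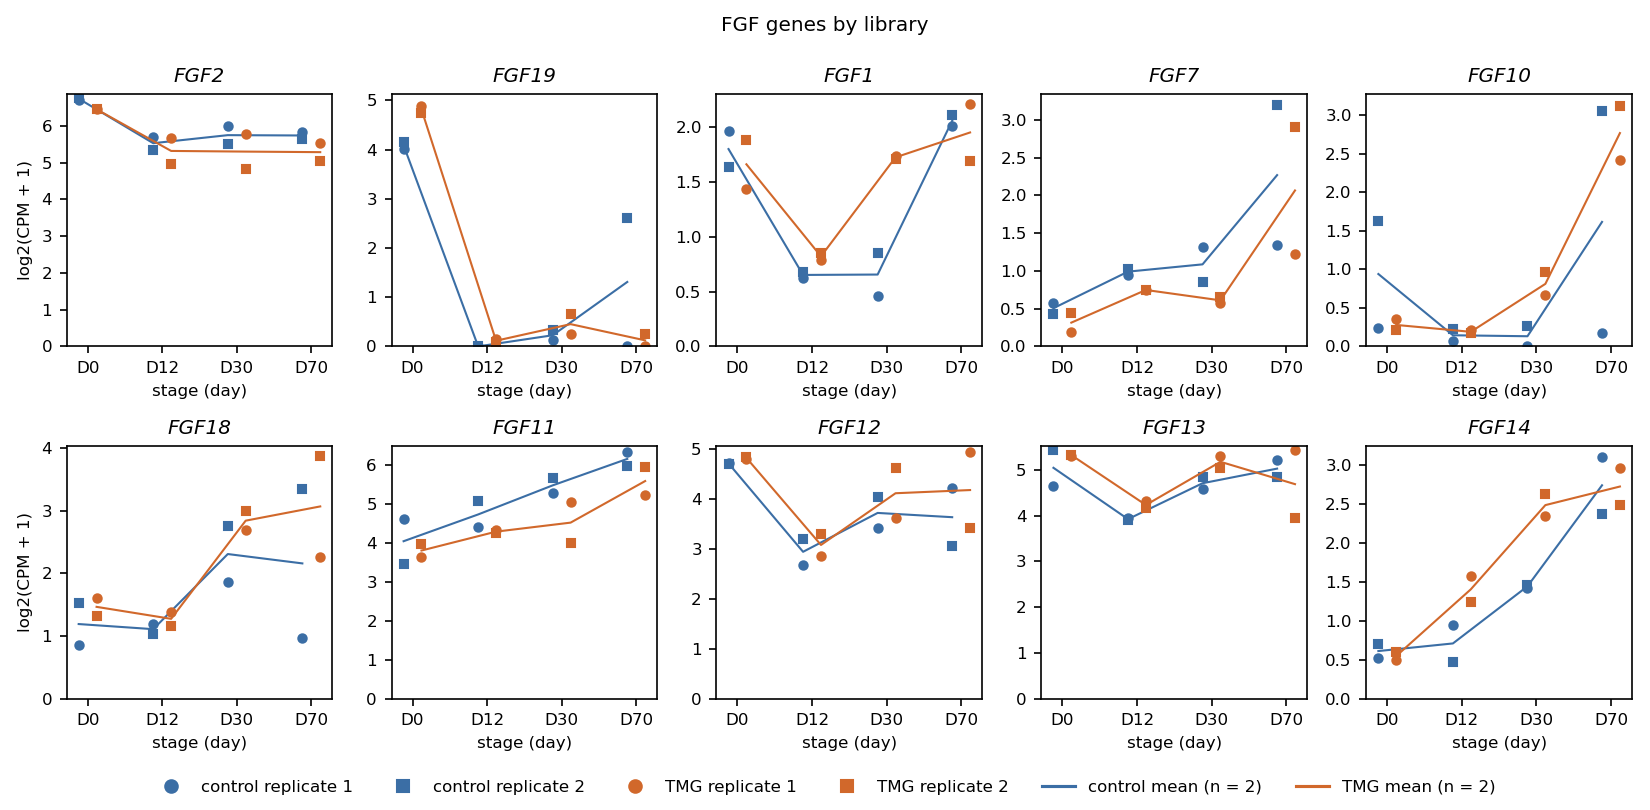
Log2(CPM + 1) of 10 FGF genes in each library by stage (x axis), each panel with its own scale from 0, control in blue, TMG in orange, circles for replicate 1, squares for replicate 2 and lines through the group means. FGF19 falls to 0.104 CPM or less on D12, FGF14 reaches 4.18 to 7.64 CPM on D70, and FGF7 is higher in replicate 2 of both arms on D70.

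Other calls on D70 passed in 1 arm only by edgeR. FGF19 was at 5.14 CPM in control replicate 2 of D70 and was at 0 to 0.185 CPM in the other 3 libraries of D70. FGF19 was called lower than on D0 in TMG cells (ratio of counts 317, 95% exact interval of counting error 87.5 to 2620, adjusted p = 0.00882 by edgeR) and not in control cells (adjusted p = 0.135), and the TMG call held with each library of its arm left out and in the other settings run. FGFR3 passed in TMG cells, at 74.7 and 158 CPM against 41.7 and 41.3 CPM on D0 (adjusted p = 0.0406), and in control cells it had 75.9 and 61.1 CPM against 30 and 39.2 CPM (0.98 ± 0.48 on the log2 scale, adjusted p = 0.141). The difference between the arms from D0 to D70 was not tested for these genes. The TMG call of FGFR3 no longer passed without TMG replicate 2 of D70 (0.243), TMG replicate 1 or 2 of D0 (0.165 and 0.173) or the filter (0.0817). FGF22, a relative of FGF7, had 0.0642 and 0.402 CPM in control cells of D70 against 1.67 and 1.61 CPM on D0. By DESeq2 it passed in both arms (adjusted p = 0.0311 in control and 0.0475 in TMG cells). By edgeR it passed in control cells only (adjusted p = 0.0426, and 0.0512 in TMG cells). The edgeR call was lost without control replicate 1 or 2 of D0 or control replicate 1 of D70. FGFR2 had 597 and 147 CPM in control cells of D70, against 131 and 175 CPM on D0. It passed there by DESeq2 (adjusted p = 0.0318) and not by edgeR (0.0671). In TMG cells it passed by neither (0.063 by DESeq2 and 0.107 by edgeR).

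The remaining 11 members were not described by library above. Besides the 6 that were not tested, these are FGF5, FGF8, FGF9, FGF17 and FGF18, none of which passed in any comparison by edgeR (lowest adjusted p 0.0719, 0.523, 0.0763, 0.328 and 0.0803). DESeq2 called FGF9 in control cells (adjusted p = 0.0422) and FGF18 in TMG cells (0.0321), both on D70 against D0. FGF8, FGF17 and FGF18, the patterning FGFs of the anterior brain and the midbrain-hindbrain border, ranged from 0 to 6.46, 0.349 to 5.61 and 0.802 to 13.7 CPM over the 16 libraries. FGF9, also known as glia-activating factor, ranged from 0.494 CPM to 12 CPM in control replicate 2 of D70. FGF5, a marker of the epiblast in the embryo, had no count on D0 or D12 and 17.5 CPM in TMG replicate 1 of D70 against at most 3.30 CPM in any other library.

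The second comparison asked what TMG changed at each stage. At a false discovery rate of 5% edgeR called 0 of 31 members at each of the 4 stages, as it called 0.0% of all genes, and the lowest adjusted p among the members was 1.0, 1.0, 0.194 and 0.818. At an unadjusted p under 0.05 there were 0 members in undifferentiated cells, beside 1.26% of all genes, 2 members on D12, beside 2.48%, and 2 on D70, beside 5.49%. On D30 there were 5 higher and 1 lower, beside 7.1% and 4.89% of all genes. With a block for the replicate number edgeR called 1 member on D30, ETV4 (adjusted p = 0.0463), beside 0.961% of all genes. DESeq2 on the same libraries called 2 members on D30, FGF1 and SPRY4, beside 3.22% of the genes it gave an adjusted p, and 0 on D0, D12 and D70, beside 0.0116%, 0.0525% and 0.214%. These 9 genes are given with their values, since a difference that misses the threshold does not show that the arms are alike.

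On D0 the arms were close for the feedback genes. SPRY4 had 330 and 390 CPM in control and 342 and 342 CPM in TMG cells (log2 fold change -0.07 ± 0.49), and DUSP6 had 284 and 302 against 310 and 305 CPM (0.07 ± 0.24). FGF19 was higher in both TMG libraries, at 28.5 and 25.8 CPM against 15.2 and 16.8 CPM, with a log2 fold change of 0.77 ± 1.16 and an adjusted p of 1.0 by edgeR.

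The 2 members of D12 were FGF14 and FGFRL1. FGF14 had 1.97 and 1.36 CPM in TMG and 0.932 and 0.383 CPM in control cells (log2 fold change 1.33 ± 0.49, adjusted p = 1.0 by edgeR). It was 0.84 without control replicate 2 and 1.04 if TMG replicate 1 was left out, and its unadjusted p was then above 0.05. FGFRL1 had 23.8 and 13 CPM in TMG and 53.4 and 21.5 CPM in control cells, where 1 TMG library lay between the controls (-1.02 ± 0.41, adjusted p = 1.0), and its log2 fold change was -0.23 when control replicate 1 was left out and -0.66 when TMG replicate 2 was. The number of members fell without control replicate 1 or TMG replicate 2 of D12 and rose without control replicate 2 or TMG replicate 1. The share of all genes in these fits is not given.

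The 6 members of D30 were SPRY4, ETV4, FGF1, FGF14 and FGFR1, higher in TMG cells, and FGFR3, lower in TMG cells. The median log2 fold change of the members was 0.45, against 0.01 for all genes. The TMG libraries lay apart from the control libraries for 17 members, 11 higher and 6 lower, beside 44.1% of all genes, 23.1% higher and 21.0% lower. The count of 6 fell when either control replicate 1 or TMG replicate 2, the library with high mesenchyme markers, was left out. It rose when TMG replicate 1 was left out. The share of all genes in these fits is not given, so the shifts are no result about the members.

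SPRY4 had 10.9 and 25.6 CPM in the TMG libraries of D30 and 3.47 and 6.82 CPM in the control libraries, so that both TMG libraries were higher and TMG replicate 2 was the highest. Its log2 fold change was 1.80 ± 0.53 (adjusted p = 0.248 by edgeR, 0.0297 by DESeq2, and 0.0297 to 1.0 over all alternatives). It was 1.05 with TMG replicate 2 left out and 1.41 with control replicate 1 left out, each at an unadjusted p above 0.05. ETV4 had 7.08 and 6.14 CPM in TMG and 2.44 and 3.26 CPM in control cells (1.2 ± 0.42, adjusted p = 0.308 by edgeR, and 0.0463 to 1.0 over all alternatives, the lowest from the fit that blocks on replicate number), and its unadjusted p was above 0.05 in the fits that left out control replicate 1 (log2 fold change 1.01) and TMG replicate 1 (1.09). In TMG cells of D30 these are 3.18% and 7.49% of the D0 mean for SPRY4 and 5.57% and 4.83% for ETV4, against 0.965% to 1.89% and 1.98% to 2.65% in control cells. DUSP6 had 22.5 and 24.4 CPM in TMG and 16.3 and 23.4 CPM in control cells, where the arms overlapped.

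Of 7 markers of undifferentiated cells, POU5F1, TDGF1 and NANOG had higher values in both TMG libraries of D30, and LIN28A, DPPA4, L1TD1 and ZFP42 overlapped between the arms. POU5F1, the defining factor of pluripotent cells, had 9.12 and 5.48 CPM in the TMG libraries and 0.0938 and 0.401 CPM in the control libraries, which is 1.07% and 0.646% of its D0 level in TMG cells and 0.0109% and 0.0467% in control cells. TDGF1 had 4.75 and 1.23 against 0.0938 and 0.251 CPM and NANOG 1.07 and 1.23 against 0.188 and 0.150 CPM. LIN28A had 27.1 and 5.95 CPM in TMG and 20.6 and 12.2 CPM in control cells. The summed level of all 7 genes was 83.4 and 28.8 CPM in TMG and 60.0 and 32.2 CPM in control cells, so the list as a whole overlapped between the arms, and none of its genes was at 0. The part of such cells in the SPRY4 and ETV4 values was not tested.

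FGF1 had 2.33 and 2.27 CPM in the TMG libraries of D30 and 0.375 and 0.802 CPM in the control libraries. Its log2 fold change of 1.90 ± 0.46 had the lowest p of the members on D30 (adjusted p = 0.194 by edgeR, 0.0391 by DESeq2, and 0.0391 to 1.0 over all alternatives) and stayed at an unadjusted p under 0.05 with each library of D30 left out, at 1.50 to 2.59. On D70 both arms were at a like level, with 3.02 and 3.30 CPM in control and 3.63 and 2.22 CPM in TMG cells. FGF14 had 4.07 and 5.20 CPM in TMG and 1.69 and 1.75 CPM in control cells (1.42 ± 0.47, adjusted p = 0.28), and it was 1.39 in the fit that left out control replicate 1 and 1.24 in that without TMG replicate 2, both at an unadjusted p above 0.05. The summed level of 7 neuron markers was 794 and 960 CPM in the same TMG libraries and 563 and 676 CPM in the control libraries, and its part in the FGF14 values was not tested.

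Of the receptors, FGFR1 had 236 and 408 CPM in TMG and 153 and 179 CPM in control cells of D30 (0.96 ± 0.34, adjusted p = 0.308 by edgeR). FGFR3 went the other way, with 76.1 and 38.6 CPM in TMG and 166 and 96.9 CPM in control cells (-1.20 ± 0.48, adjusted p = 0.363). Mesenchyme markers were highest in TMG replicate 2, at 29600 CPM, and their part in these values was not tested. Both receptors lay farthest from the control libraries in that library. Without it the log2 fold changes were 0.51 and -0.79, and with control replicate 1 left out they were 0.84 and -0.76, all at an unadjusted p above 0.05.

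**Figure D5:**
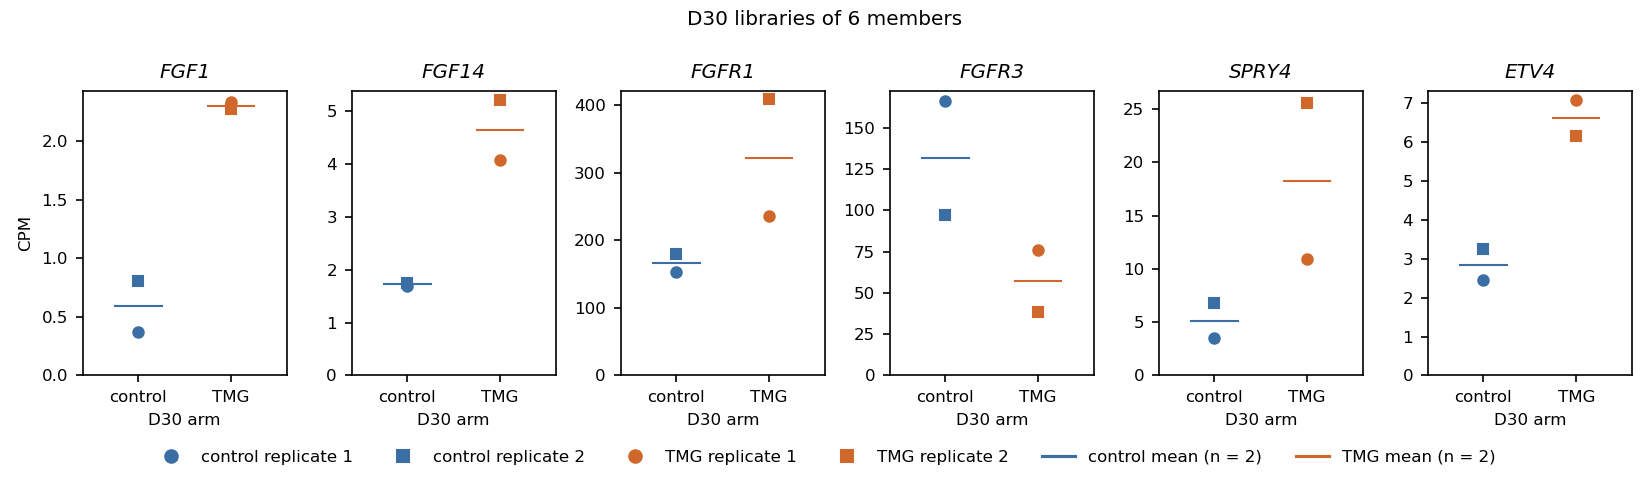
CPM (y axis, from 0, each panel with its own scale) of the 6 members with an unadjusted p under 0.05 on D30, in control (blue) and TMG libraries (orange), with circles for replicate 1, squares for replicate 2 and a bar at the mean of 2 libraries. The arms do not overlap in any panel, FGFR3 is the 1 gene lower in TMG cells, and for SPRY4 and FGFR1 replicate 2 of TMG lies well above replicate 1.

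On D70 the members at an unadjusted p under 0.05 were DUSP6 and FGF19. DUSP6 had 19.0 and 21.2 CPM in TMG and 9.57 and 9.80 CPM in control cells, and the replicates of each arm lay close together. Its log2 fold change of 1.05 ± 0.25 (adjusted p = 0.818 by edgeR, 0.0682 by DESeq2, and 0.0682 to 1.0 over all alternatives) stayed between 0.98 and 1.12 with 1 library of D70 left out, each at an unadjusted p under 0.05. FGF19 was at 0 and 0.185 CPM in TMG and 0 and 5.14 CPM in control cells, so its value rested on control replicate 2. Its log2 fold change was -4.75 ± 1.77 (adjusted p = 0.892 by edgeR). Without that library the control arm held no FGF19 count, and the fitted value of 3.53 gives no direction. The number of members on D70 rose without any 1 library of D70. The share of all genes in these fits is not given.

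Whether the TMG effect differed between stages was tested by interaction. Between D0 and D12, D12 and D30, and D30 and D70, 0 members passed by edgeR, each with a lowest adjusted p of 1.0, beside 0.0% of all genes. DESeq2 also called 0 members in each, and its share of all genes is not given. At an unadjusted p under 0.05 there were 0, 3 and 6 members, beside 1.07%, 3.41% and 4.03% of all genes. Between D12 and D30 these were FGF1, FGFR1 and ETV4, and between D30 and D70 FGF1, FGF14, FGF19, FGFR3, SPRY4 and DUSP6. FGF1 had the lowest p, with a log2 difference of -2.01 ± 0.61 from D30 to D70. These counts depended on single libraries. The 0 of the first interval rose without either control library of D12 or TMG replicate 1 of D12. The 3 of the second fell without either control library of D12 or TMG replicate 2 of D12. It also fell without control replicate 1 or TMG replicate 2 of D30. The 6 of the last fell when control replicate 1, control replicate 2 or TMG replicate 2 of D30 was left out. The share of all genes in these fits is not given, so the shifts are no result about the members.

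Other genes of the pathway showed what lies around the members. Among 20 tested extracellular genes (co-receptors, binding proteins and heparan sulphate enzymes) 5 were higher and 3 lower on D12 than on D0 in control cells by edgeR. Of 21 components of the RAS and ERK cascade 2 were higher and 1 lower, of 12 further feedback genes 1 was higher and 3 were lower, and of 18 early genes of ERK signalling 0 were higher and 5 were lower. In TMG cells these counts were 4 and 4, 2 and 1, 1 and 2, and 1 and 3. Over all genes 16.7% were called in control cells, 9.71% lower, and 16.4% in TMG cells, 9.19% lower. In each list 0 genes passed for TMG at any stage, and on D30 the unadjusted p was under 0.05 for 2 higher and 3 lower extracellular genes, 1 and 3 of the cascade, 2 and 0 further feedback genes and 3 and 0 early genes, beside 7.1% higher and 4.89% lower over all genes.

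FLRT3, a membrane protein that binds FGF receptors, rose from 4.32 and 6.01 CPM on D0 to 22.1 and 41.9 CPM on D12 in control cells (log2 fold change 2.63 ± 0.39, adjusted p = 0.00236 by edgeR). FGFBP3, a carrier that releases FGFs from the matrix, fell from 196 and 114 to 15.1 and 17.1 CPM (-3.26 ± 0.54, adjusted p = 0.00389). The docking protein FRS2, which links the receptors to RAS, rose from 37.8 and 37.6 to 70.5 and 67.7 CPM (0.87 ± 0.18, adjusted p = 0.00899), while the kinase MAP2K1 fell from 60.3 and 57.7 to 34.8 and 41.4 CPM (-0.63 ± 0.17, adjusted p = 0.0275).

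Of the further feedback genes, DUSP5, a nuclear ERK phosphatase, fell from 30.4 and 23.3 to 5.15 and 6.07 CPM (-2.26 ± 0.40, adjusted p = 0.00491 by edgeR), and PHLDA1 fell from 57.2 and 118 to 26.6 and 32.6 CPM (-1.57 ± 0.33, adjusted p = 0.011). PHLDA1 had 41.4 and 37 CPM on D0 and 42.1 and 48.1 CPM on D12 in TMG cells and did not pass there (adjusted p = 0.714). On D0 PHLDA1 already had a log2 fold change of -1.16 ± 0.33 between the arms (adjusted p = 1.0), and on D30 the sign was opposite, at 0.85 ± 0.33 (adjusted p = 0.344). The early genes FOSL1 and IER2 fell from 16.5 and 14.0 to 3.73 and 3.66 CPM (adjusted p = 0.00348) and from 159 and 281 to 83.9 and 77.4 CPM (adjusted p = 0.00664).

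Besides PHLDA1, pathway genes with an unadjusted p under 0.05 for TMG at more than 1 stage follow, and none passed after adjustment. The share of all genes that met this rule is not given, so they are listed for their values only. ELK3, an ETS factor, had 43.9 and 64.7 CPM in TMG and 20.9 and 24.3 CPM in control cells of D30 (1.27 ± 0.34 on the log2 scale, adjusted p = 0.22 by edgeR) and 44.7 and 64.7 against 19.6 and 40.4 CPM on D70. SRF, a factor of the early response, had 37.7 and 61.1 against 26.7 and 32.8 CPM on D30 (0.73 ± 0.27, adjusted p = 0.333). NDST1, which sulphates heparan sulphate, had 129 and 199 against 89.0 and 112 CPM on D30 (0.71 ± 0.25, adjusted p = 0.299), and HS6ST1, another such enzyme, had 53.7 and 62.3 against 78.6 and 73.8 CPM (-0.39 ± 0.17, adjusted p = 0.409). On D30 ELK3, SRF, NDST1 and PHLDA1 were highest in TMG replicate 2, the library with high mesenchyme markers. HS6ST1 was lowest in TMG replicate 1. The part of such cells in these values was not tested. FOSL1 had log2 fold changes of -0.89 on D0 and -0.76 on D12 (adjusted p = 1.0 at both) and the opposite sign on D70, at 1.26 and 1.66 CPM in TMG and 0.642 and 0.643 CPM in control cells (1.17 ± 0.37, adjusted p = 0.874).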

How the data were processed

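RNA of H9 cells was sequenced after ribosomal RNA depletion, with 2 libraries for each of 8 groups of stage and treatment. The expected counts were deposited by the authors per Ensembl gene (Bowtie2 alignment, RSEM 1.2.12, hg19 per the processing notes), rounded to whole numbers and not normalized. Titles set the groups, and the sample descriptions and count columns match them. In 8 libraries, replicate 2 of control and replicate 1 of TMG at each stage, another label on treatment names the opposite arm, and groups drawn from that label would compare replicates 1 with replicates 2. The members and the gene lists were chosen with earlier results of these data known. A member was described by library if it passed in a comparison of stages, had an unadjusted p under 0.05 for TMG or reached a control mean of 10 CPM, which held for 26.

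Counts were tested with edgeR 4.0.16 (R 4.3.3) as 1 robust quasi-likelihood fit of 16 libraries, with TMM normalization, filterByExpr (minimum count 10, minimum total 15, 24249 genes kept), 8 residual degrees of freedom and Benjamini-Hochberg adjustment over all genes within each comparison. Standard errors were derived from the F statistic, CPM use TMM library sizes, and a member with no count in a group was set to a floor of 3 counts per library. Genes without a symbol took 4.34% to 11.1% of a library's counts and stayed in the library sizes. Alternatives were DESeq2 1.42.0, RLE size factors, no filter on low counts, a block for the replicate number, a stage fitted alone and each library left out, where the lone library is assumed to vary like the other groups. The test was run on simulated counts first. Promoters were matched by symbol to RefSeq on GRCh38.p14. Other tools were Python 3.11.15, numpy 2.4.6, pandas 2.3.3, scipy 1.17.1 and matplotlib 3.10.9. The result of 1 marker gene is not reported here.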

Additional observations from a re-analysis of the deposited data

How the results depend on the processing

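With 2 libraries in a group, 1 library decided many calls. Among alternative values of single members, 405 kept their direction and their side of the threshold, 122 kept the direction only and 1 reversed. This was FGF19 for TMG on D70, at 3.53 without control replicate 2 of D70 (-8.28 to 3.53 with 1 library left out). That fit left no FGF19 count in the control arm of D70, so its sign gives no direction. With 1 library left out, the number of members called from D0 to D12 ranged from 5 to 7 in control (12 in the full fit) and was 6 in TMG cells (13), and from D0 to D70 it ranged from 8 to 14 (13) and 8 to 16 (16). For D30 against D12 it was 0 to 1 in control (1) and 0 to 1 in TMG cells (0), and for D70 against D30 it was 0 to 1 (0) and 0 to 2 (0). For TMG at an unadjusted p under 0.05 it was 0 on D0, 1 to 3 on D12, 2 to 9 on D30 and 4 to 6 on D70, and for the interactions 0 to 3, 0 to 4 and 1 to 6. The share of all genes passing in these fits is not given. The counts therefore show how far they rest on single libraries, and nothing about the members beside other genes. The cause was not tested beyond the fewer samples in these fits.

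The replicate numbers correlated between arms at 0.0453, 0.367, 0.223 and 0.607 from D0 to D70, over 2 pairs of libraries a stage. What the number stands for is not given. On D70 the mesenchyme sums went with it, at 45100 and 58900 CPM in replicates 2 and 7450 and 3890 CPM in replicates 1. Whether libraries of 1 number shared a culture was not tested. With the replicate block, 1, 6 and 5 members had an unadjusted p under 0.05 for TMG on D0, D12 and D70, beside 2.54%, 6.09% and 12% of all genes. On D30 1 passed the false discovery rate (ETV4, adjusted p = 0.0463 by edgeR), beside 0.961%, and the first interaction had 3 at an unadjusted p under 0.05, beside 2.85%. The block also ended the 2 calls of FGF12 on D12 (adjusted p = 0.0558 and 0.0589). D0, D12 and D70 fitted alone gave 2, 0 and 1 members for TMG, beside 5.04%, 6.03% and 0.814% of all genes. On D30 there were 8 members with the stage fitted alone and 9 with the block, against 6 in the full fit. The share of all genes is not given for these 2 counts of D30. DESeq2 called 2 members for TMG on D30 (beside 3.22% of its genes), 3 and 1 from D12 to D30 in control and TMG cells (12.2% and 5.21%) and 4 from D30 to D70 in control cells (8.13%). Without the filter the last interaction had 3 members, beside 2.59%. The cause of these shifts was not tested. Depth limits what can be said of the 6 members not tested, which held at most 16 counts in a library.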
